A study of Mus musculus with 16 samples.

Results

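Livers of sons exposed to bisphenol A (BPA) in utero were compared with livers of sons of the corn oil control group, 4 against 4 animals at 24 weeks of age. These 8 libraries are those that the labels give as male, of 16 in the series, and the other 8 are of daughters. All mice were C57BL/6J, with no altered allele named, and the 4 groups were BPA sons, corn oil sons, BPA daughters and corn oil daughters. Exposure was in utero alone, so the livers were taken long after it ended, and the sources used here do not give the dose, its route and timing, or the litters. Total RNA was sequenced after removal of ribosomal RNA, and of 24062 gene symbols with estimated counts, 13482 passed an expression filter and were tested. The sample IDs mark separate offspring, but siblings of a litter cannot be told apart from unrelated animals. The p-values therefore set differences against the spread between livers and not between litters. In edgeR that spread was estimated over all 16 libraries, daughters included. Exposed sons carry the IDs 3, 4, 12 and 15 and corn oil sons, called controls below, the IDs 2, 3, 7 and 10. Values by liver are given in these orders.

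BPA is a monomer of polycarbonate plastics and epoxy resins that binds estrogen receptors and other nuclear receptors. The hepatocyte, the main cell of the liver, makes most plasma proteins, among them albumin, clotting factors, complement and the acute phase proteins that rise with inflammation, and it secretes hepcidin, the hormone that closes the iron exporter ferroportin. It also oxidises and makes fatty acids, makes bile acids from cholesterol, and clears foreign compounds with cytochrome P450 and conjugating enzymes.

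Exposed sons had the deeper libraries, with 25268010 to 28920065 counts in all against 21094337 to 23584379 in controls (two-sided exact permutation p = 0.0286, the smallest that 4 against 4 allows). Genes with a count numbered 14937 ± 180 (SD, n = 4) in exposed sons and 14488 ± 134 in controls, with the same p. Albumin took 6.03 to 8.62% of counts in the 8 livers, as a hepatocyte RNA does, and its share did not differ beyond the spread (exact permutation p = 0.629). BPA son 12 stood apart, with the lowest albumin share (6.03%) and 6.35% of its counts on major urinary protein genes, against 1.89 to 4.07% in the others. Principal component 1 of the 8 sons (25.8% of the variance) ran from −42.8 to −15.1 in exposed sons and from 19.1 to 34.9 in controls. Spearman correlations across genes were 0.980 to 0.991 within a group and 0.972 to 0.981 between groups.

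Of all tested genes, 15.1% passed in sons at a Benjamini-Hochberg adjusted p under 0.05 in edgeR's quasi-likelihood test, 860 higher and 1181 lower in exposed livers. The shares by direction, 6.38% higher and 8.76% lower, are the background for every count of a gene group below. The groups and their members were chosen with earlier results of these data known. Their counts beside the background therefore describe the groups and are no test of them. Most changes were small: the median absolute log2 change of these genes was 0.45, and 97 rose and 35 fell at least 2-fold. For 1790 of them the 4 exposed and the 4 control values did not overlap, and such separation was seen in 19.9% of all tested genes, 8.56% with exposed values above and 11.3% below. With DESeq2 size factors in place of the trimmed mean of M-values, 978 genes were higher and 1047 lower. After thinning all libraries to the smallest total, 832 genes were higher and 1128 lower. Leaving out BPA son 3, BPA son 15, control 2 or control 7 brought the genes that fell to 699, 726, 758 and 734. The plot of change against level shows where the genes named below lie.

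**Figure D1:**
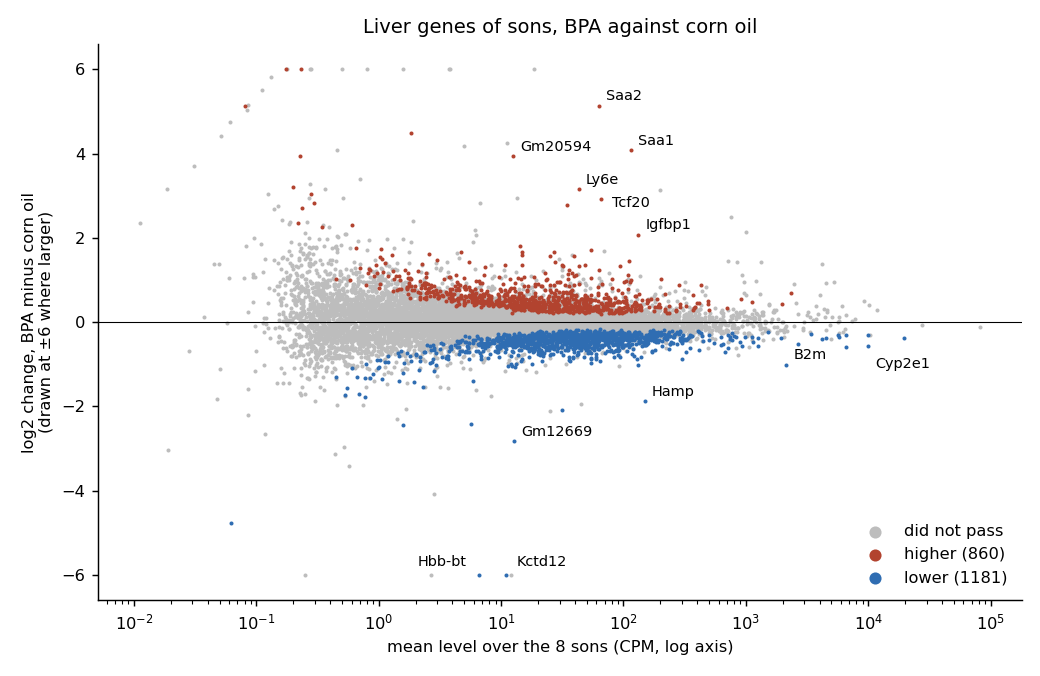
Log2 change between exposed and control sons (vertical axis, BPA minus corn oil) against the mean level over the 8 sons in CPM (counts scaled to library size, log axis), 1 point per tested gene. Red points (860) rose, blue points (1181) fell and grey points did not pass; changes beyond ±6 are drawn at ±6.

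Hamp, the gene of hepcidin (chromosome 7, 30942368 to 30944032, GRCm38, minus strand), fell in exposed sons. It measured 34.1, 49.9, 109 and 59.7 CPM (counts scaled to the effective library size) in exposed sons and 249, 241, 165 and 280 CPM in controls. Every exposed liver lay below every control, and BPA son 12 was the highest of the exposed. The log2 change was −1.89 ± 0.34 (SE, adjusted p = 0.00257), with −2.25 to −1.64 over the 8 fits that left out 1 liver, and 33.7% of the gene's 31-base words also occur in other genes. Hamp was the only one of 28 iron handling genes to pass in edgeR with all livers and scaling by the trimmed mean of M-values. With 2 other scalings, 2 genes of the list rose and 1 fell. Bmp6, the signal that drives hepcidin transcription from liver endothelium, measured −0.26 ± 0.21 (adjusted p = 0.462), its target Id1 −0.42 ± 0.44 (0.581), and Tmprss6, the protease that restrains hepcidin, 0.28 ± 0.10 (0.0624). Tmprss6 passed in DESeq2 (adjusted p = 0.0199), in limma-voom (0.0101), with 2 other scalings (0.0454 and 0.0459) and without BPA son 12 (0.00865), where 3 iron handling genes rose. Slc40a1, the ferroportin gene, measured 0.17 ± 0.16 (adjusted p = 0.547) and Tfrc, the transferrin receptor gene, 0.19 ± 0.23 (0.656).

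Hepcidin transcription is known to respond to bone morphogenetic proteins and, through STAT3, to interleukin 6, and serum amyloid A genes to C/EBP proteins and STAT3. The 250 bases before the start of these 3 genes are therefore shown (RefSeq, GRCm38.p6, 5′ to 3′ on the gene's strand). Capitals mark the letters GGCGCC (the core of the bone morphogenetic protein response element) and TTCNNNGAA (the STAT3 element) in Hamp, and TTGCNNAA (a C/EBP element) in Saa1 and Saa2.
Hamp, chr7:30944030-30944279, minus strand: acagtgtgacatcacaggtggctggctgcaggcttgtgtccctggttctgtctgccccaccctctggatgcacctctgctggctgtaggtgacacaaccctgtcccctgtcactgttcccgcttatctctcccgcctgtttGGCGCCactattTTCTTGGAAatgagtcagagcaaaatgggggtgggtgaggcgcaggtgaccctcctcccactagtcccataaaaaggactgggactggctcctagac
Saa1, chr7:46742981-46743230, minus strand: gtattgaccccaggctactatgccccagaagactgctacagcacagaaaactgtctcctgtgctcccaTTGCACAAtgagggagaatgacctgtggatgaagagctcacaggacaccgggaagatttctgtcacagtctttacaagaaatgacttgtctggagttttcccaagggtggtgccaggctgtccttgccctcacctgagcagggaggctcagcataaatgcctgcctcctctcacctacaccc
Saa2, chr7:46751583-46751832, plus strand: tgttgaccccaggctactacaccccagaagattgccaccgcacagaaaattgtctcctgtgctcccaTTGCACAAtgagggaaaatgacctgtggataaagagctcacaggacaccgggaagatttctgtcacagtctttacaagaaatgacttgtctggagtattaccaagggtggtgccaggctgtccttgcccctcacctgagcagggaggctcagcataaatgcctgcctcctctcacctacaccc
Searched on both strands, GGCGCC lay at −109 and TTCNNNGAA at −97 from the Hamp start (position of the first base of the match), and TTGCNNAA at −182 in Saa1 and −183 in Saa2. No TTCNNNGAA lay in the windows of Saa1 and Saa2, and no marked match overlaps another. Of 32851 windows of 250 bases, 9.59% hold GGCGCC, 7.02% TTCNNNGAA and 9.56% TTGCNNAA. A match is a run of letters and no measure of binding.

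Of 32 acute phase genes tested, 6 rose and none fell (18.8% higher, against 6.38% of all genes), with a median log2 change of 0.46 against −0.00 over all tested genes, and 29 of 32 above 0. Hamp and C3 were counted in other lists, and both fell. The summed level of the list overlapped, at 28005 to 48375 CPM in exposed and 27272 to 32874 CPM in control sons (exact permutation p = 0.229). Saa1, a serum amyloid A gene, measured 11.5, 9.51, 594 and 251 CPM in exposed sons and 13, 25.3, 7.44 and 5.32 CPM in controls. Saa2, its neighbour, measured 5.77, 3.94, 306 and 176 CPM in exposed sons and 2.77, 6.88, 2.71 and 1.52 CPM in controls. Both genes were high in BPA sons 12 and 15, and the values of BPA sons 3 and 4 overlapped those of controls. The log2 changes of 4.08 ± 1.15 for Saa1 and 5.14 ± 1.23 for Saa2 (adjusted p = 0.0312 and 0.0144) thus come from 2 of the 4 exposed livers. By limma-voom with sample weights the adjusted p was 0.481 and 0.422, and in a fit of the sons alone 0.137 and 0.0926. The 2 genes share 46.8% and 44.5% of their sequence words with other genes, so reads could have been split between them.

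Apcs, the serum amyloid P gene, rose in all 4 exposed livers, at 33.0, 35.4, 55.6 and 90.3 CPM against 24.7, 25.7, 29.99 and 20.6 CPM, a log2 change of 1.09 ± 0.28 (adjusted p = 0.0188). Hp, the haptoglobin gene, measured 2023, 1865, 4310 and 3418 CPM against 1983, 1735, 1802 and 1637 CPM, 0.70 ± 0.21 (adjusted p = 0.0371). Stat3, the factor through which interleukin 6 acts, measured 99.0, 98.8, 143 and 152 CPM against 62.8, 101, 87.7 and 76.1 CPM, 0.59 ± 0.18 (0.0372). In each of these 3 genes the highest values were those of BPA sons 12 and 15, as for Saa1 and Saa2. Cd14, the coreceptor for endotoxin, rose by 0.88 ± 0.27 (adjusted p = 0.0367). Lcn2, the lipocalin 2 gene, followed the same livers without passing, at 1.83, 2.27, 23 and 20.1 CPM against 0.201, 3.98, 2.25 and 0.134 CPM (adjusted p = 0.0538), and so did Serpina3n, a protease inhibitor gene, at 208, 243, 537 and 683 CPM against 213 to 275 CPM (0.110). Fgb, a fibrinogen chain gene, measured 0.12 ± 0.16 (adjusted p = 0.673), and Socs3, the feedback inhibitor of STAT3, was high in BPA son 15 alone (20.5 CPM, 3.01 to 6.80 CPM in the other 7). Without BPA son 12, or without BPA son 15, 2 acute phase genes rose, and without BPA son 4, 11 did. The calls of Saa1, Hp and Cd14 ended in 5 of 8 fits with 1 liver left out, that of Stat3 in 4 and that of Apcs in 1 (highest adjusted p = 0.0871, 0.0868, 0.0955, 0.0852 and 0.0542, without BPA son 12, BPA son 12, BPA son 15, control 10 and control 10). Saa2 passed in all 8. All 6 acute phase calls ended both in limma-voom and in a fit of the sons alone: the adjusted p in the latter was 0.0628 for Apcs, 0.111 for Hp, 0.0722 for Stat3 and 0.0857 for Cd14, and in limma-voom 0.0631, 0.167, 0.0533 and 0.059.

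The summed level of 16 neutrophil and monocyte markers was 8.14 to 13 CPM in exposed sons and 4.91 to 7.68 CPM in controls (exact permutation p = 0.0286), and was highest in BPA son 15. Of the defining markers, Retnlg, Camp, Ltf and Mpo were at 0 in all 8 livers, and none of the 8 markers tested passed. None of 18 Kupffer cell and macrophage markers passed either, with summed levels of 594 to 934 CPM against 527 to 930 CPM. In bulk RNA, fewer cells of a type and less RNA per cell cannot be told apart, and the part of these markers in the acute phase values was not tested.

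**Figure D2:**
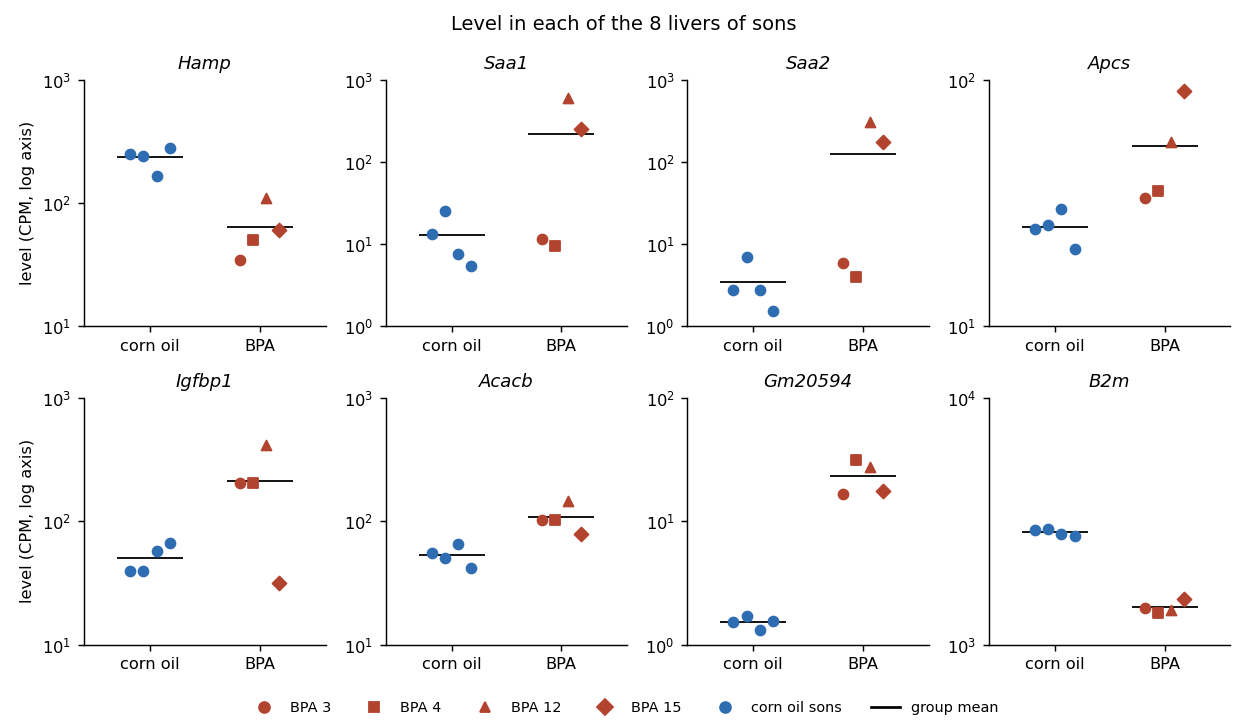
Level of 8 genes in each liver of a son (CPM, log axis), with corn oil sons in blue, BPA sons in red with 1 symbol per animal, and a line at each group mean. Saa1 and Saa2 were high in BPA sons 12 and 15 alone, Igfbp1 in BPA sons 3, 4 and 12, and in Hamp, Apcs, Acacb, Gm20594 and B2m all exposed livers lay on 1 side of all controls.

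Igfbp1, a secreted insulin-like growth factor binding protein that insulin represses, showed another pattern over the livers. Its promoter is shown for the insulin response sequence CAAAACA (capitals), which lies at −108 from the start and is found in 5.56% of all windows of this length on either strand.
Igfbp1, chr11:7197537-7197786, plus strand: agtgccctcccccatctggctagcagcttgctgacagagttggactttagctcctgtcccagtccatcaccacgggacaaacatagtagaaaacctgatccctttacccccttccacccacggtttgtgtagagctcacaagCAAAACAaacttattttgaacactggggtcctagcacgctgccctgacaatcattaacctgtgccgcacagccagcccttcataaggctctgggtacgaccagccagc
Igfbp1 measured 204, 204, 414 and 31.4 CPM in exposed sons and 39.7, 39.3, 57.2 and 66.7 CPM in controls. Thus BPA sons 3, 4 and 12 lay above all controls and BPA son 15 below them. The log2 change was 2.07 ± 0.58 (adjusted p = 0.0283), and 5 of 8 fits with 1 liver left out ended the call (highest adjusted p = 0.0759, without BPA son 12). Daughters spanned 160 to 310 CPM when exposed and 106 to 317 CPM in controls, all above the 4 control sons and BPA son 15.

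Of 28 insulin and insulin-like growth factor signalling genes, Igfbp1 rose and Akt2, a kinase of the insulin pathway, fell by 0.24 ± 0.06 in log2 units (adjusted p = 0.0181), a share below the background of 15.1%. Akt2 did not pass in 4 of 8 fits with 1 liver left out (highest adjusted p = 0.0997, without control 7). Insr, the insulin receptor gene, measured −0.05 ± 0.09 (adjusted p = 0.755) and Igf1 −0.09 ± 0.15 (0.755). Pck2, the mitochondrial form of the enzyme that commits carbon to glucose synthesis, rose from 1.58 ± 0.535 to 3.33 ± 0.548 CPM (mean ± SD; change 1.07 ± 0.23, adjusted p = 0.00507), with 3.08, 3.07, 4.15 and 3.02 CPM in exposed sons above every control. It was the only one of 30 gluconeogenesis and glycogen genes that passed. Pck1, the cytosolic form, measured 4567, 4500, 5960 and 4810 CPM against 4241, 4154, 3912 and 4480 CPM (0.24 ± 0.11, adjusted p = 0.157), and G6pc, the last step of glucose release, 0.40 ± 0.27 (0.367). Ldha, the lactate dehydrogenase A gene, rose from 738 ± 22.6 to 1073 ± 169 CPM (0.54 ± 0.12, adjusted p = 0.00549), with no overlap between the groups.

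Among lipid genes few passed: of 36 lipogenesis genes, 2 rose and 1 fell, below the background of 15.1%. Acacb, the acetyl-CoA carboxylase of the mitochondrial surface whose product malonyl-CoA blocks fatty acid entry, measured 103, 102, 147 and 79.6 CPM in exposed sons and 55.2, 50.6, 66.0 and 41.4 CPM in controls. Its lowest exposed value lay above the highest control, with a log2 change of 1.02 ± 0.21 (adjusted p = 0.00508), and the call held in all 8 fits with 1 liver left out. Scd2, a stearoyl-CoA desaturase gene, measured 103, 128, 43.1 and 76.8 CPM against 21.4, 47.3, 36.3 and 44.5 CPM (1.23 ± 0.33, adjusted p = 0.0227), with BPA son 12 within the controls. Fads2, the first desaturase of the polyunsaturated fatty acid pathway, fell from 575 ± 67.9 to 426 ± 35.6 CPM (−0.43 ± 0.12, adjusted p = 0.0263). Plin5, a lipid droplet protein gene of the PPAR alpha targets, rose to 140, 124, 200 and 87.8 CPM from 80.9, 67.8, 74.8 and 58.0 CPM (0.97 ± 0.26, adjusted p = 0.0194), and it was the only one of 24 such targets that passed. Fasn, which builds palmitate, measured −0.16 ± 0.24 (adjusted p = 0.728), Srebf1, the lipogenic transcription factor gene, −0.07 ± 0.33 (0.921), and Cpt1a, the gate of mitochondrial fatty acid import, 0.01 ± 0.12 (0.969). With 1 liver left out, the calls of Fads2, Scd2 and Plin5 ended in 6, 4 and 1 of 8 fits (highest adjusted p = 0.106 without BPA son 3, 0.0729 without BPA son 4 and 0.0564 without control 10).

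Fatty acid oxidation genes moved both ways, 4 of 38 higher and 2 lower, near the background shares. Acadl, whose enzyme starts the oxidation of long-chain fatty acids, measured 234, 237, 286 and 238 CPM in exposed sons and 344, 355, 355 and 344 CPM in controls (−0.49 ± 0.09, adjusted p = 0.00145). The 4 controls lay close together and above every exposed liver, of which BPA son 12 was the highest. Acads, the short-chain enzyme gene, rose by 0.45 ± 0.10 and the electron carrier gene Etfa by 0.39 ± 0.07 (adjusted p = 0.00646 and 0.00246).

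Of 32 lipoprotein genes, 3 rose and 4 fell. Sort1, a sorting receptor for apolipoprotein B, measured 26.2, 32.8, 29.7 and 34.0 CPM against 24.4, 14.0, 11.9 and 11.3 CPM (1.00 ± 0.29, adjusted p = 0.0310), with control 2 close to the exposed livers. Apoc4 rose by 0.32 ± 0.09 and Apoc1 fell by 0.29 ± 0.08 in log2 units (adjusted p = 0.0217 and 0.0252). Of 26 cholesterol synthesis genes, Sc5d and Pmvk fell, by 0.53 ± 0.14 and 0.36 ± 0.11 in log2 units (adjusted p = 0.0158 and 0.0399). Of 27 bile acid genes 3 rose: Cyp2c70, the mouse enzyme that makes muricholic acids, from 77.1 ± 23.8 to 154 ± 47.2 CPM (1.00 ± 0.26, adjusted p = 0.0199), Hsd3b7, which overlaps 9430064I24Rik over 99.2% of its exons, by 0.43 ± 0.12 (0.0239) and Amacr by 0.30 ± 0.09 (0.0398). Cyp7a1, the rate-limiting enzyme, ranged from 105 to 483 CPM in exposed sons and from 185 to 666 CPM in controls (−0.38 ± 0.50, adjusted p = 0.678). With 1 liver left out, the calls of Apoc1 and Pmvk ended in 7 of 8 fits (highest adjusted p = 0.114 without BPA son 12 and 0.186 without control 3), that of Hsd3b7 in 4 (0.0688, without BPA son 4), those of Sc5d, Cyp2c70 and Amacr in 3 (0.0620 without BPA son 12, 0.0572 without control 10 and 0.0828 without BPA son 3), that of Apoc4 in 1 (0.0529, without control 10) and that of Sort1 in 5 (0.0830, without control 10). Without control 7, or without control 10, no bile acid gene passed.

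Of 57 cytochrome P450 and other phase I genes, 2 rose and 9 fell (15.8% lower, against 8.76% of all genes), with a median log2 change of −0.18. Falls were more frequent among abundant genes: of the 2697 genes with the highest mean CPM in sons (51.2 CPM or more) 16.9% fell, and of the 2697 with the lowest (up to 2.02 CPM) 1.22%. Cyp2e1, the ethanol-oxidising P450, measured 7639, 8620, 7744 and 7933 CPM in exposed sons and 12411, 12259, 11059 and 11716 CPM in controls. The groups did not overlap, the adjusted p was 0.0272 (−0.57 ± 0.16), and 6 of 8 fits with 1 liver left out gave a p above the threshold (highest 0.0888, without BPA son 3). Cyp2d26 fell from 1103 ± 56.6 to 740 ± 92.4 CPM (−0.58 ± 0.10, adjusted p = 0.00150), Cyp2a12, of which 34.5% of the sequence words are shared, from 771 ± 53 to 536 ± 47.8 CPM (−0.53 ± 0.10, 0.00329), and the flavin monooxygenase gene Fmo1 by 0.44 ± 0.10 on the log2 scale (0.00687). Adh1, the main alcohol dehydrogenase gene, measured 1074, 1195, 671 and 1094 CPM against 1385, 1422, 1577 and 1592 CPM (−0.57 ± 0.14, adjusted p = 0.0115). In Adh1, as in Cyp2j5 (847, 720, 613 and 842 CPM against 971 to 1105 CPM), BPA son 12 was the lowest. Cyp2j5 fell by 0.47 ± 0.12 in log2 units (adjusted p = 0.0176), and its call ended in 4 of 8 fits with 1 liver left out (highest 0.0755, without BPA son 12). Without that liver 4 genes of the list fell. The inducible genes that mark activated xenobiotic receptors did not pass: Cyp1a2 measured −0.44 ± 0.25 (adjusted p = 0.278), Cyp2b10 0.53 ± 0.38 (0.403) and Cyp3a11 −0.30 ± 0.18 (0.301).

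The pericentral zone of the liver lobule expresses Cyp2e1, and the summed level of 20 pericentral markers was 13367 to 15994 CPM in exposed sons and 19749 to 20424 CPM in controls (exact permutation p = 0.0286). Cyp2e1, at 7639 to 8620 CPM in exposed and 11059 to 12411 CPM in control sons, made up a large part of this sum. It was the only marker of the list that passed. The p of the sum thus includes the fall of Cyp2e1 given above, and the other markers were not tested as a sum without it. Glul (20.4% shared sequence words), the glutamine synthetase gene that marks the innermost hepatocytes, measured 1003, 944, 820 and 1063 CPM in exposed sons and 1267, 1316, 1393 and 1190 CPM in controls (−0.43 ± 0.17, adjusted p = 0.0989). The summed level of 20 periportal markers overlapped, at 96137 to 101359 CPM against 95512 to 110358 CPM. Of these markers Hamp and Hsd17b13, a lipid droplet dehydrogenase gene, fell, the latter by 0.72 ± 0.13 in log2 units (adjusted p = 0.00201). The part of the pericentral share of the tissue in the phase I values was not tested.

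Among 44 conjugation and transport genes 3 rose and 2 fell. Gstm4, a glutathione transferase gene, measured 33.4, 39.0, 35.4 and 34.6 CPM in exposed sons and 16.9, 20.8, 21.8 and 24.8 CPM in controls (0.76 ± 0.14, adjusted p = 0.00201). Ugt1a1, which conjugates bilirubin, fell by 0.42 ± 0.12 in log2 units (adjusted p = 0.0297), but 82.7% of its exons overlap Ugt1a6a, and the call ended in 6 of 8 fits with 1 liver left out (highest 0.115, without control 3). Nfe2l2, the gene of the antioxidant regulator NRF2, measured 70.7, 66.7, 51.1 and 54.1 CPM against 88.9, 89.2, 101 and 85.4 CPM (−0.59 ± 0.11, adjusted p = 0.00233), and all exposed livers lay below all controls. It is 1 of 27 genes of the NRF2 list, of which 2 rose and 3 fell. Prdx1, a peroxiredoxin gene, rose by 0.49 ± 0.08 and the thioredoxin gene Txn1 by 0.32 ± 0.08, while the epoxide hydrolase gene Ephx1 and the biliverdin reductase gene Blvrb fell by 0.41 ± 0.11 and 0.45 ± 0.13 on the log2 scale. The calls of Ephx1 and Blvrb ended in 3 and 5 of 8 fits with 1 liver left out (highest adjusted p = 0.0812 and 0.149, both without control 7).

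Of 27 coagulation genes, 7 fell and none rose (25.9% lower, against 8.76% of all genes), with a median log2 change of −0.14. Of the 2697 genes with the highest mean CPM in sons 16.9% fell, and the part of level in the coagulation count was not tested. F13b, the carrier subunit of the clot-stabilising factor XIII, measured 241, 252, 241 and 250 CPM in exposed sons and 339, 343, 319 and 353 CPM in controls (−0.46 ± 0.08, adjusted p = 0.000955). The 4 exposed livers were nearly equal and all below the controls. Other falls were of F5, the factor V gene (787 to 905 against 1043 to 1230 CPM, −0.35 ± 0.08, adjusted p = 0.00964), F9, the factor IX gene (−0.29 ± 0.07, 0.0120), Proz, the protein Z gene (−0.51 ± 0.13, 0.0144), Vkorc1, the vitamin K reductase gene, which overlaps Gm21974 over 47.7% of its exons (−0.31 ± 0.08, 0.0114), and Hrg, the histidine-rich glycoprotein gene (−0.36 ± 0.09, 0.0146). Exposed and control values overlapped in none of these 6 genes. Without BPA son 3, or without control 3, 3 coagulation genes fell. F13b passed in all 8 fits with 1 liver left out, while the calls of F5, F9, Proz and Vkorc1 ended in 2 and that of Hrg in 3 (highest adjusted p = 0.0645 without control 3, 0.0888 without control 2, 0.0635 without BPA son 12, 0.0631 without BPA son 15 and 0.0877 without BPA son 3).

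Of 26 complement genes, 4 rose and 1 fell (15.4% higher). C4bp, an inhibitor of the classical pathway, rose from 333 ± 19.7 to 458 ± 50.3 CPM (0.46 ± 0.10, adjusted p = 0.00599), C4b by 0.47 ± 0.14 (0.0355), C2 by 0.41 ± 0.12 (0.0384) and C8g by 0.36 ± 0.11 (0.0403). C3, the central component, measured 8244, 8607, 8824 and 9941 CPM in exposed sons and 11032, 11817, 10537 and 10548 CPM in controls (−0.30 ± 0.08, adjusted p = 0.0194). Every exposed liver was below every control for C3. C4b and C2 share 48.3% and 44.4% of their sequence words with other genes. C4bp passed in all 8 fits with 1 liver left out, while the calls of C3 and C4b ended in 5 and those of C2 and C8g in 6 (highest adjusted p = 0.117 without control 3, 0.0812 and 0.0851 without control 7, and 0.0848 without BPA son 3). In the fits without BPA son 12, BPA son 15, control 7 or control 10, 2 complement genes rose.

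Of 22 heat shock genes tested, 5 fell, none rose (22.7% lower) and 17 did not pass, with a median log2 change of −0.32. Their summed level overlapped between the groups, at 4156 to 6121 CPM in exposed and 4971 to 7852 CPM in control sons (exact permutation p = 0.171). Bag3, a cochaperone of Hsp70, measured 26.2, 20.7, 35.2 and 17.9 CPM in exposed sons and 29.7, 35.5, 63.6 and 56.7 CPM in controls (−0.89 ± 0.23, adjusted p = 0.0150). Controls 7 and 10 were high, and BPA son 12 overlapped the other controls. Hspa9, the mitochondrial Hsp70, fell by 0.30 ± 0.09 in log2 units (adjusted p = 0.0297). Hspa1b, an inducible Hsp70 gene (68.1% shared sequence words), was uneven in both groups, at 76.5, 23.9, 66.1 and 36.2 CPM in exposed sons and 25.1, 24.0, 147 and 140 CPM in controls (−0.73 ± 0.57, adjusted p = 0.453). Hsp90aa1 (51.5% shared) measured 317, 200, 396 and 229 CPM against 300, 235, 523 and 477 CPM (−0.43 ± 0.25, 0.288). Dnajb9, a chaperone gene of the endoplasmic reticulum, measured 41.2, 38.0, 44.0 and 40.0 CPM against 50.5, 46.7, 90.9 and 85.5 CPM (−0.74 ± 0.18, adjusted p = 0.0110). Controls 7 and 10 were the highest of the 8 livers in Bag3, Hspa1b, Hsp90aa1 and Dnajb9. Hsf1, the heat shock factor gene, measured −0.04 ± 0.12 (0.858). Without BPA son 15, or without control 7, no heat shock gene fell; 1 fell without BPA son 4, and 2 without BPA son 3 or control 10. The calls of Bag3 and Hspa9 ended in 3 and 6 of 8 fits with 1 liver left out (highest adjusted p = 0.0594 without control 7 and 0.140 without BPA son 15). Of 28 endoplasmic reticulum stress genes, Dnajb9 fell and Trib3, a pseudokinase gene induced by such stress, rose (0.63 ± 0.21, adjusted p = 0.0486). Dnajb9 passed in all 8 fits with 1 liver left out and Trib3 in 1 of them (highest 0.0973, without BPA son 15). In a fit of the sons alone the adjusted p was 0.0561 for Dnajb9, 0.0865 for Bag3 and 0.0795 for Hspa9.

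Of 87 nuclear genes of the respiratory chain and ATP synthase tested, assembly factors included, 29 rose and 11 fell, against 6.38% and 8.76% of all genes. The median exon length was 1550 bases for the genes that rose, 1032 for those that fell and 2178 for those that did not pass. Among all genes with a known length, 10% rose and 9.37% fell of the 2669 shortest (up to 2385 bases). Of the 2668 longest, 4.42% rose and 10.7% fell, and the part of length in the count was not tested. By complex, 11 rose and 6 fell of 36 in complex I, 6 and 1 of 14 in complexes II and III, 6 and 2 of 20 in complex IV, and 6 and 2 of 17 in ATP synthase. Atp5e, the epsilon subunit of ATP synthase, measured 57.4, 50.8, 46.8 and 48.2 CPM in exposed sons and 27.9, 26.7, 27.1 and 29.4 CPM in controls (0.87 ± 0.09, adjusted p = 2.77e-05). Atp5l, its subunit g, rose from 24.6 ± 1.38 to 39.5 ± 3.33 CPM (0.68 ± 0.08, adjusted p = 6.42e-05), Uqcr10, of complex III, by 0.57 ± 0.09 (0.000566) and Ndufs4, of complex I, by 0.55 ± 0.08 (0.000308). Other genes of the same complexes fell. Ndufs6, of complex I, measured 37.4, 35.8, 43.7 and 36.5 CPM in exposed sons and 69.0, 65.5, 75.8 and 72.0 CPM in controls (−0.88 ± 0.07, adjusted p = 3.08e-06). Uqcrb, of complex III, fell from 155 ± 7.17 to 88.2 ± 5.80 CPM (−0.81 ± 0.06, adjusted p = 2.20e-06, with 34.8% shared sequence words), Cox7a2l, an assembly factor of supercomplexes, by 0.67 ± 0.09 on the log2 scale (0.000201) and Usmg5, of ATP synthase, by 0.65 ± 0.08 (0.000148). In all 8 of these genes exposed and control values were apart, and each call held in all 8 fits with 1 liver left out. Of 45 mitochondrial ribosome genes, 5 rose and 7 fell, led by Mrps14 (0.66 ± 0.11, adjusted p = 0.00108) and Mrps5 (−0.52 ± 0.10, 0.00345).

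Genes of the cytosolic ribosome, whose proteins form the machine of protein synthesis, also moved both ways. Of 81 genes, 22 rose and 13 fell (27.2% and 16.0%), with a median log2 change of 0.09. Rpl39 measured 57.1, 53.5, 53 and 47.1 CPM in exposed sons and 22.7, 21.3, 25.6 and 25.2 CPM in controls (1.15 ± 0.09, adjusted p = 1.19e-06). Rpl37a measured 60.3, 51.9, 57.8 and 53 CPM against 24.6, 21.1, 25.4 and 31.1 CPM (1.12 ± 0.11, 2.47e-05), Rps14 rose from 46.6 ± 3.89 to 87.9 ± 6.35 CPM (0.91 ± 0.10, 3.58e-05) and the paralog Rpl22l1 by 1.43 ± 0.18 (0.000168). In these 4 genes every exposed liver lay above every control. Rpl17 measured 33.2, 33.0, 39.6 and 29.7 CPM against 60.01, 60.2, 62.2 and 60.5 CPM (−0.84 ± 0.08, adjusted p = 1.33e-05), and Rpl23 fell from 212 ± 14.0 to 132 ± 12.6 CPM (−0.69 ± 0.09, 0.000183). Shared sequence was common: 10 of the 22 that rose and 11 of the 13 that fell share at least 20% of their sequence words with other genes, such as pseudogenes, as did 36 of the 46 that did not pass. Values of Rpl17 (46.1% shared), Rpl37a (28.5%) and Rpl23 (25.0%) are uncertain for this reason, and those of Rpl39 (9.90%) and Rps14 (11.7%) less so.

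**Figure D3:**
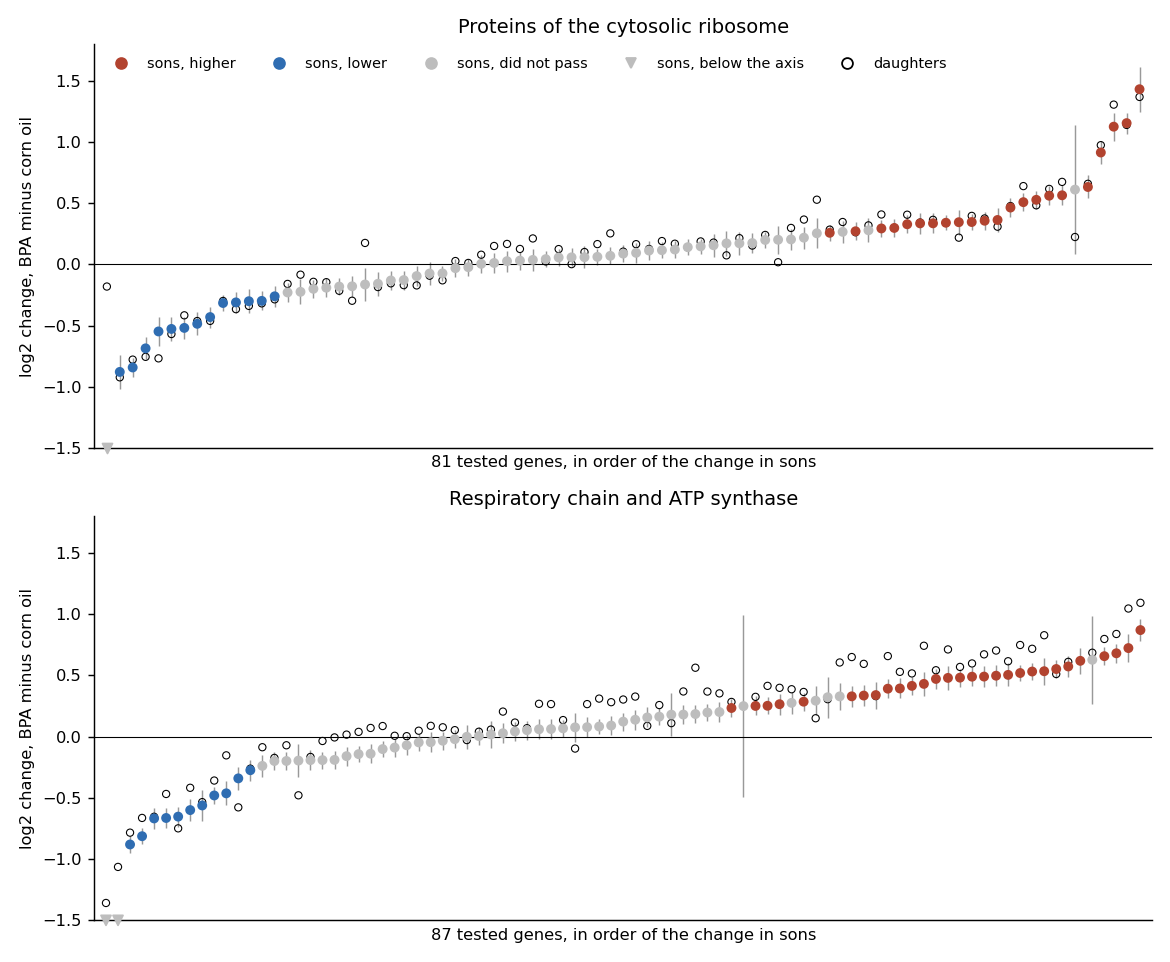
Log2 change in sons (filled points, with SE) and daughters (open circles) for 81 genes of the cytosolic ribosome and 87 of the respiratory chain and ATP synthase, in order of the change in sons. Red points rose, blue points fell and grey points did not pass; triangles mark Rpl26, Ndufs5 and Cox7a1, whose changes lie below the axis and did not pass. Of the ribosomal genes 22 rose and 13 fell, and of the respiratory genes 29 rose and 11 fell.

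The same genes were called in daughters. Of the 22 ribosomal genes that rose in sons 21 also rose in daughters, as all 13 that fell did, and of the 29 respiratory genes all 29, with 10 of the 11 that fell. Sons and daughters share no library, but exposed livers of both sexes were also the deeper ones. With counts thinned to the smallest library, Rpl39, Rpl37a, Rps14, Rpl17, Rpl23, Atp5e, Atp5l, Ndufs6, Uqcrb and Usmg5 still passed in sons. Thinning used the deposited estimated counts, and the part of depth in their estimation was not tested. Ndufs5 of complex I, with 26.5% shared sequence words, did not pass and measured 31.6, 1.70, 1.92 and 2.42 CPM in exposed sons and 36.5 to 45.8 CPM in controls (−2.11 ± 1.08, adjusted p = 0.225). Rpl26 (27.1% shared) stood at 20.6 CPM in control 2 and at 0.0446 to 0.644 CPM in the other 7 livers. Both were named after their values were seen.

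**Figure D4:**
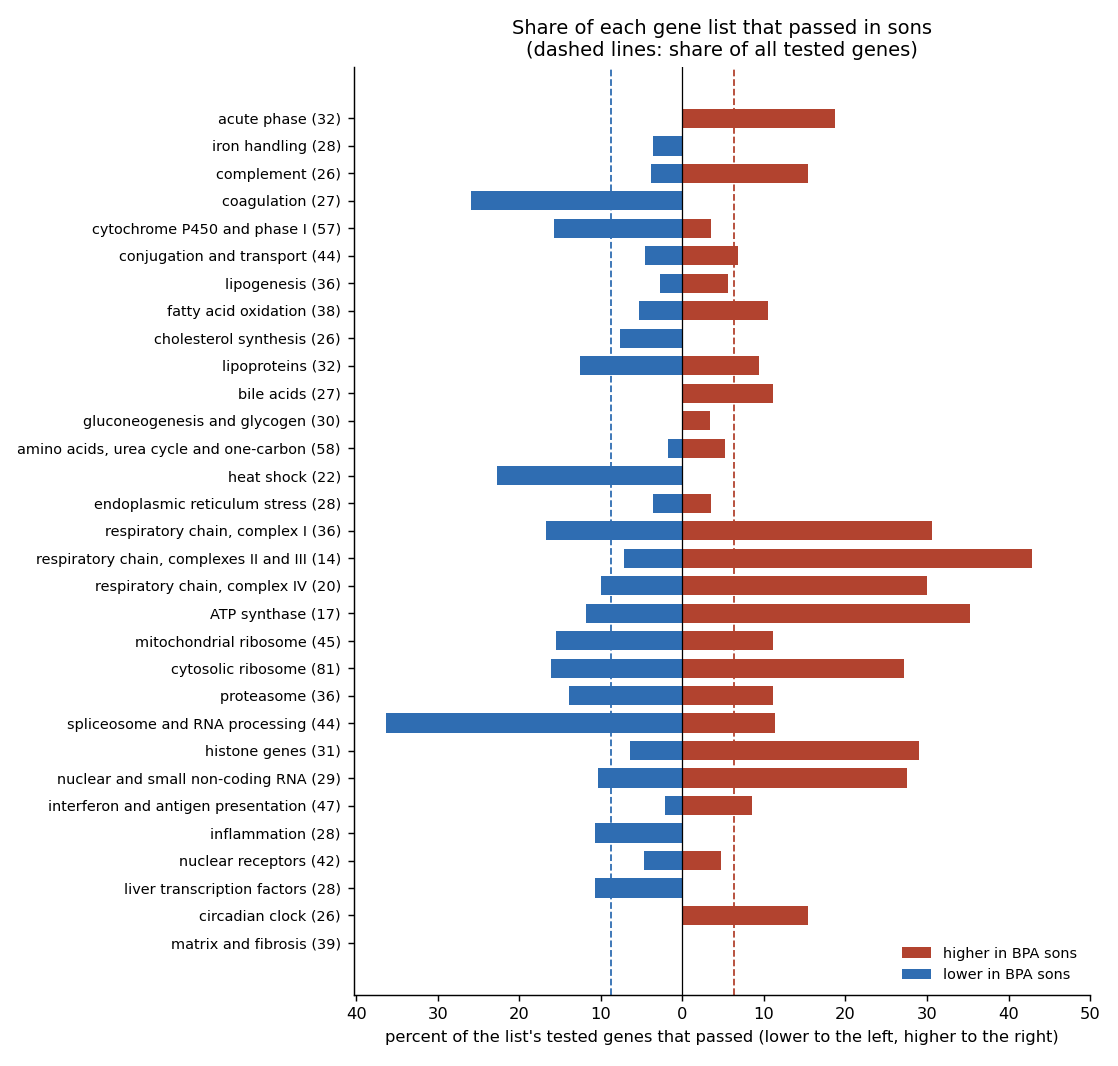
Percent of the tested genes of 31 lists that rose (red, to the right) and fell (blue, to the left) in exposed sons, with the number tested after each name. Dashed lines mark the shares over all tested genes, 6.38% higher and 8.76% lower. The lists were chosen with earlier results of these data known, so the shares are descriptive. The 4 lists of the respiratory chain and ATP synthase reach furthest to the right (up to 42.9%) and the spliceosome list furthest to the left (36.4%).

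Of 44 spliceosome and RNA processing genes, 16 fell and 5 rose (36.4% and 11.4%) and 23 did not pass, with a median log2 change of −0.27, and the number that fell ranged from 10 without BPA son 15 or control 2 to 19 without BPA son 12. Snrpd1, a core protein of the small nuclear ribonucleoproteins, measured 6.85, 5.76, 7.72 and 7.12 CPM in exposed sons and 12.4, 10.2, 13.4 and 12.9 CPM in controls (−0.84 ± 0.13, adjusted p = 0.000702). Hnrnpdl, an RNA-binding protein gene, measured 37.1, 37.6, 44.7 and 34.0 CPM against 61.9, 63.1, 71.2 and 57.5 CPM (−0.73 ± 0.12, 0.00129). The splicing factor genes Sf3b6, Luc7l3 and Luc7l2 (the last with 24.5% shared sequence words) fell by 0.56 ± 0.09, 0.54 ± 0.09 and 0.37 ± 0.07 in log2 units (adjusted p = 0.000714, 0.00149 and 0.00286). Snrpe, of the same core ring as Snrpd1, rose by 0.62 ± 0.13 (adjusted p = 0.00410), with Snrpd1 lower. All 6 passed in each fit with 1 liver left out.

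Of 29 nuclear and small non-coding RNA genes, 8 rose and 3 fell (27.6% and 10.3%). The summed level of 34 genes of this list was nevertheless lower in every exposed son. It was 5573 to 5916 CPM in exposed sons and 6664 to 7517 CPM in controls (exact permutation p = 0.0286). Scarna6, a guide RNA of Cajal bodies, measured 10.7, 8.6, 13.5 and 9.72 CPM in exposed sons and 3.07, 4.11, 5.80 and 4.07 CPM in controls (1.31 ± 0.18, adjusted p = 0.000257). Snora74a, a small nucleolar RNA that lies wholly within AC121821.1, measured 47.4, 33.9, 58.4 and 41.6 CPM against 14.2, 17.7, 19.7 and 19.4 CPM (1.35 ± 0.14, 4.08e-05). Scarna2 rose by 1.07 ± 0.16 and Scarna10, which overlaps Gm28967 over 87.1% of its length, by 1.63 ± 0.29 (adjusted p = 0.000460 and 0.00158). The long RNAs Gas5 and Malat1 fell by 0.51 ± 0.09 and 0.52 ± 0.12 in log2 units (adjusted p = 0.00210 and 0.00932), and the call of Malat1 ended in 3 of 8 fits with 1 liver left out (highest 0.0542, without control 2). Controls never reached the exposed levels of Scarna6 or Snora74a. Over gene classes of the annotation, 7 of 19 small nucleolar RNAs rose and 1 fell (42.1% passed), against 15.3% of 12769 protein-coding genes. Of 31 histone genes, 9 rose and 2 fell (29.0% higher), and 5 rose without BPA son 3 or without BPA son 4. Hist1h1c, a linker histone gene, measured 44.9, 32.7, 58.9 and 34.6 CPM against 20.8, 21.2, 27.9 and 23.7 CPM (0.87 ± 0.21, adjusted p = 0.0120), and Hist1h4h rose by 0.55 ± 0.09 (0.00130). Of the 9 histone genes that rose, 8 share at least 20% of their sequence words with other genes. H3f3b, a replacement histone gene with a polyadenylated RNA, fell from 173 ± 18.6 to 119 ± 20.3 CPM (−0.54 ± 0.12, adjusted p = 0.00548).

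Mir6236 was the microRNA gene among the largest rises. The mature miR-6236 is listed in RefSeq (GRCm38.p6, chr9:110281353-110281371, plus strand) as below, with the seed, bases 2 to 8, in capitals.
miR-6236: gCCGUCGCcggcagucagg
The deposited count is of the gene and does not tell its mature product from longer RNA of the locus (chromosome 9, 110281287 to 110281409). It measured 17.0, 39.1, 72.3 and 21.8 CPM in exposed sons and 12.0, 11.1, 12.1 and 15.5 CPM in controls (1.56 ± 0.41, adjusted p = 0.0197). BPA son 12 was the highest and BPA son 3 close to control 10. The call held in all 8 fits with 1 liver left out, and not by limma-voom (adjusted p = 0.0519) or in a fit of the sons alone (0.0575).

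Genes of nuclear receptors and their cofactors showed few changes. Of 42 nuclear receptor and cofactor genes, 2 rose and 2 fell, fewer than the background of 15.1%. Nr2f6, an orphan receptor gene, rose from 41.4 ± 2.90 to 60.5 ± 10.1 CPM (0.55 ± 0.12, adjusted p = 0.00494), but 54.4% of its exons overlap Ocel1. Rxrb, a partner of many receptors, rose by 0.24 ± 0.07 (0.0289), and the corepressor gene Ncor1 and the orphan receptor gene Nr2c1 fell by 0.34 ± 0.08 and 0.31 ± 0.09 on the log2 scale (0.0110 and 0.0252). Esr1, the main estrogen receptor of liver, measured 16.0, 14.3, 21.4 and 18.4 CPM in exposed sons and 16.3, 15.6, 13.8 and 19.3 CPM in controls. The groups overlapped for Esr1 (0.11 ± 0.15, adjusted p = 0.688). Nr1i3, the gene of the receptor CAR (74.9% overlap with Tomm40l), measured 0.30 ± 0.26 (adjusted p = 0.495) and Ahr 0.03 ± 0.10 (0.894). Ppara measured 541, 563, 562 and 570 CPM in exposed sons and 504, 196, 195 and 548 CPM in controls (0.63 ± 0.37, adjusted p = 0.287), so controls 3 and 7 were low and the other 6 livers near each other. With 1 liver left out, Nr2f6 passed in all 8 fits, and the calls of Rxrb, Ncor1 and Nr2c1 ended in 2, 3 and 6 (highest adjusted p = 0.0893 without BPA son 4, 0.0701 without control 3 and 0.140 without BPA son 3).

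Of 28 liver transcription factor genes, 3 fell and none rose. Foxa1, a pioneer factor of liver genes, measured 14.1, 18.5, 11.9 and 15.1 CPM in exposed sons and 22.8, 21.6, 18.7 and 21.1 CPM in controls (−0.50 ± 0.14, adjusted p = 0.0231). Nfib, a nuclear factor I gene, fell by 0.34 ± 0.11 in log2 units (0.0436). With 1 liver left out, the calls of Foxa1 and Nfib ended in 5 and 7 of 8 fits (highest adjusted p = 0.0937 without BPA son 12 and 0.199 without control 3). Of 26 genes listed as circadian, 4 rose and none fell (15.4% higher). The one of lowest p, Tspan4, is a tetraspanin gene and no part of the clock itself (1.05 ± 0.17, adjusted p = 0.00100), and Csnk1d, a kinase gene that acts on the PER proteins, rose by 0.40 ± 0.07 (0.00154). Nfil3, a repressor of the clock output, measured 44.2, 35.3, 24.2 and 23.7 CPM against 16.5, 15.3, 13 and 17.8 CPM (1.02 ± 0.21, adjusted p = 0.00494), and Clock itself 153, 142, 151 and 128 CPM against 120, 103, 108 and 82.5 CPM (0.47 ± 0.14, 0.0288). Nfil3 passed in all 8 fits with 1 liver left out and Clock in 5 (highest 0.0813, without control 10). Arntl, the partner of Clock, ranged from 7.49 to 20.7 CPM in exposed and from 4.56 to 18.9 CPM in control sons, and Dbp, which peaks in the evening, from 3.44 to 35.8 CPM and from 16.3 to 50.8 CPM. These ranges within a group are wide, and the sources used here do not give the hours of dissection.

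B2m, the light chain of class I molecules, fell. It measured 1410, 1338, 1385 and 1534 CPM in exposed sons and 2930, 2943, 2821 and 2756 CPM in controls (−1.01 ± 0.08, adjusted p = 2.75e-06). The spread within each group was far smaller than the difference between them. Of 47 interferon and antigen presentation genes, B2m was the only one that fell, and 4 rose. Bst2, the antiviral tetherin gene, measured 68.4, 52.1, 49.1 and 54.3 CPM against 26.4, 29.3, 31.6 and 33.0 CPM (0.90 ± 0.10, adjusted p = 7.23e-05). Ifi27 measured 54.6, 37.2, 48.8 and 42.0 CPM against 13.6, 22.6, 24.4 and 11.7 CPM (1.34 ± 0.20, 0.000566). The class I gene H2-T23 (25.8% shared sequence words) and the regulator gene Irf7 rose by 0.34 ± 0.11 and 0.51 ± 0.16 (0.0465 and 0.0485), calls that ended in 5 and 6 of 8 fits with 1 liver left out (highest 0.0978 without control 7 and 0.117 without BPA son 15). Without BPA son 12, 9 genes of the list rose, and 2 did in the fits without BPA son 3, BPA son 4, BPA son 15 or control 7. Of 28 inflammation genes, Ripk1, Rela and Il1rap fell, by 0.31 ± 0.06, 0.43 ± 0.13 and 0.30 ± 0.09 in log2 units (adjusted p = 0.00344, 0.0338 and 0.0340), and none rose. Ripk1 passed in all 8 such fits, and the calls of Rela and Il1rap ended in 6 and 7 (highest 0.157 without control 7 and 0.176 without BPA son 12).

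Marker lists of other cells gave few calls. Of 39 matrix and fibrosis genes none passed, and no marker passed of 20 for stellate cells and fibroblasts, 11 for T and NK cells or 6 for B and plasma cells. Of 23 endothelial markers, Stab1, a scavenger receptor of liver sinusoids, rose by 0.39 ± 0.08 (adjusted p = 0.00395) and Rspo3, the endothelial signal for pericentral identity, fell by 0.38 ± 0.11 on the log2 scale (0.0288), a call that ended in 5 of 8 fits with 1 liver left out (highest 0.139, without control 7). The summed endothelial level was 785 to 881 CPM in exposed sons and 743 to 858 CPM in controls. Acinar pancreas markers summed to 3.45 to 5.88 CPM against 2.50 to 3.18 CPM, with Cpb1, Cela3b, Ctrb1, Pnlip, Prss1, Try4 and Cel at 0 in all 8 livers, and 8 of 12 muscle markers were at 0 as well. The part of these markers in other results was not tested.

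Considering genes 1 by 1, where groups did not overlap and the 8 livers averaged 5 CPM or more, Gm20594 rose most, an uncharacterised gene on chromosome 6, at 16.8, 31.7, 27.6 and 17.6 CPM in exposed sons and 1.51, 1.70, 1.31 and 1.56 CPM in controls. Ly6e, a membrane protein gene, measured 72.1, 75.9, 72.3 and 89.4 CPM against 14.0, 7.33, 6.78 and 6.75 CPM (3.15 ± 0.73, adjusted p = 0.0116). Tcf20, a transcriptional coregulator gene, measured 113, 111, 128 and 111 CPM against 15.4, 15.0, 17.5 and 13.6 CPM (2.91 ± 0.53, 0.00286). Within sons, no control came near the exposed level of these genes. Control daughters, however, spanned 7.32 to 114 CPM for Ly6e and 14.7 to 116 CPM for Tcf20, so both levels occurred without exposure. Control daughters also reached, or nearly reached, the exposed level of Stx16, a syntaxin gene (20.1 to 24.5 against 5.19 to 7.01 CPM in sons, 4.80 to 23.1 CPM in control daughters), Pphln1 (21.7 to 23.5 against 5.19 to 10.5 CPM, 7.83 to 21.2 CPM) and Dnajc28 (19.4 to 25.8 against 3.93 to 10.6 CPM, 9.36 to 21.3 CPM). Control daughters did not reach the exposed sons for Gm20594 (1.09 to 1.49 CPM), Slc45a3, a solute carrier gene (45.6 to 68.3 against 14.6 to 22.3 CPM in sons, 14.9 to 34.1 CPM), Phc3, a polycomb gene (39.0 to 45.1 against 11.6 to 14.3 CPM, 11 to 13 CPM), Acp1, a phosphatase gene with 28.1% shared sequence words (37.9 to 41.6 against 9.74 to 18.1 CPM, 12.2 to 19.3 CPM), or Lpp, a focal adhesion gene (139 to 173 against 45.1 to 81.5 CPM, 41.0 to 70.4 CPM). The last 4 rose by 1.57 ± 0.24, 1.67 ± 0.24, 1.43 ± 0.16 and 1.44 ± 0.18 (adjusted p = 0.000712, 0.000442, 6.33e-05 and 0.000201). Zfp281, a zinc finger gene, rose by 2.77 ± 0.81 (adjusted p = 0.0353), and 7 of 8 fits with 1 liver left out ended its call (highest 0.0864, without control 10).

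Kctd12, a potassium channel tetramerisation domain gene on chromosome 14, was at 0 in all 4 exposed sons and measured 23.1, 21, 19.6 and 23.7 CPM in controls. Against a floor of 3 counts over the exposed group this is at least 754-fold lower, a nominal bound for estimated counts. Exposed daughters spanned 0 to 37.8 CPM, 64.2% of the gene's exons overlap Gm26778, and edgeR's adjusted p of 0.0297 was above the threshold in all 8 fits with 1 liver left out (highest 0.0616, without BPA son 3). Other large falls were of Recql, a DNA helicase gene that overlaps Pyroxd1 over 37.7% of its exons, at 3.77, 2.88, 2.77 and 3.35 CPM against 7.30, 7.77, 9.87 and 9.08 CPM (−1.41 ± 0.24, adjusted p = 0.00137), Lyar, a nucleolar gene (−1.06 ± 0.17, 0.000707), Rpf2, a ribosome assembly gene (−0.99 ± 0.16, 0.000927), and Upf3b, a gene of nonsense-mediated decay, at 11.9, 12.3, 12.5 and 11.7 CPM against 26.3, 22.9, 23.9 and 22.7 CPM (−0.99 ± 0.09, 8.78e-06). In Upf3b the exposed livers were nearly equal. Cyp2a4, a P450 gene known to be higher in females (58.9% shared sequence words), measured 76.4, 120, 41.5 and 111 CPM against 132, 169, 248 and 159 CPM, with 425 to 576 CPM in exposed and 464 to 612 CPM in control daughters. Its log2 change in sons was −1.02 ± 0.27 (adjusted p = 0.0186), and 2 of 8 fits with 1 liver left out ended the call (highest 0.0679, without control 7). Hhex, a homeobox gene of liver development, fell by 0.98 ± 0.31 on the log2 scale (0.0464), a call that ended in 7 of 8 fits with 1 liver left out (highest 0.136, without BPA son 15). Among the genes of lowest p were falls with little spread. S100a1, a calcium sensor gene, measured 68.9, 65.9, 69.4 and 66.5 CPM against 125, 114, 119 and 126 CPM (−0.84 ± 0.06, adjusted p = 6.49e-07). Shfm1, a proteasome and DNA repair gene, measured 40.7, 38.9, 43.8 and 44.1 CPM against 75.9, 72.0, 78.0 and 82.1 CPM (−0.88 ± 0.06, 1.02e-06), and Pfdn5, a prefoldin gene with 24.6% shared sequence words, 46.7, 42.2, 44.4 and 45.3 CPM against 86.0, 83.3, 89.1 and 81.7 CPM (−0.93 ± 0.07, 1.08e-06).

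Hbb-bt, an adult beta globin gene (59.4% shared sequence words), measured 0, 0, 0.179 and 0.149 CPM in exposed sons and 11.6, 10.3, 27.7 and 2.73 CPM in controls (−7.31 ± 1.10, adjusted p = 0.000832), and Hbb-b2 101, 42.1, 107 and 83.3 CPM against 16.7, 15.1, 36.2 and 34.6 CPM (1.70 ± 0.41, 0.0125). The row Hbb-b1 held 208, 0.720, 209 and 176 CPM and Hbb-bs 0.0359, 83.3, 0.446 and 0.410 CPM in exposed sons, so the liver low in Hbb-b1 was the one high in Hbb-bs. Hba-a1 and Hba-a2, of which 75.5% and 92.6% of the sequence words are shared, exchanged in the same way: Hba-a2 held 231 CPM in BPA son 15 and 104 CPM in control 10, and 0.302 to 0.580 CPM in the other 6 livers. Summed over 4 rows, beta globin was 309, 126, 317 and 260 CPM in exposed sons and 82.7, 74.3, 191 and 109 CPM in controls, and summed over 2 rows, alpha globin was 303, 128, 302 and 243 CPM against 90.8, 69.3, 188 and 104 CPM. The sums overlapped in BPA son 4 and control 7, and 3 exposed sons lay above all controls. The fall of Hbb-bt is thus that of 1 row of a family with shared sequence whose sum was not lower. Neither it nor the rise of Hbb-b2 is shown to be a change of that gene's own RNA, and the part of reads moved between rows was not tested.

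Daughters of the same treatment gave 2773 calls, 20.6% of tested genes. Of the 2041 genes called in sons, 1364 were called in daughters too (66.8% of the calls in sons and 49.2% of those in daughters), 1363 in the same direction, and of the 677 others 612 had the same sign in daughters. The difference between the sexes was tested as an interaction, and 0 of 13482 genes passed in edgeR (lowest adjusted p = 0.253), with 1019 (7.56%) at an unadjusted p under 0.05, 36 passing in DESeq2 and 1 in limma-voom. By list, 0 of the 6 acute phase genes called in sons were called in daughters, 34 of 35 ribosomal, 16 of 21 spliceosome and 7 of 11 phase I genes were called there in the same direction. Hamp measured 198 to 266 CPM in exposed and 179 to 497 CPM in control daughters (−0.56 ± 0.33; interaction unadjusted p = 0.0134, adjusted 0.562). For Saa2 the change in daughters was 0.71 ± 1.12 (unadjusted p of the difference = 0.0169), for Acacb −0.10 ± 0.21 (0.00188), for Nfe2l2 −0.13 ± 0.11 (0.00904) and for Gstm4 −0.05 ± 0.14 (0.000756), and none of these differences passed after adjustment. B2m, Bst2 and Acadl were called in both sexes, with log2 changes of −0.86 ± 0.08, 0.90 ± 0.10 and −0.73 ± 0.09 in daughters.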

How the data were processed

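RNA of 16 livers was sequenced and the 8 libraries of sons were compared within a fit of all 16. The deposited values are estimated counts per gene symbol; the submitters' processing notes name FastQC, HISAT, StringTie, DESeq2 and the GRCm38 (mm10) genome, and the sources used here give no versions or strand setting. Values pile up at 7 counts (3622 values, against 2785 at 6 and 2040 at 8). Genes past filterByExpr (13482 of 24062) got TMM size factors and were tested with edgeR 4.0.16 (R 4.3.3; robust quasi-likelihood, Benjamini-Hochberg adjusted p under 0.05). CPM are counts scaled to effective library size, and SE is that of the log2 change. Sequence sharing is the percent of a gene's 31-base words found in other GENCODE M21 genes, and 20% or more of sharing or of exon overlap makes a value uncertain (22750 symbols matched directly, 922 by synonym, 390 not). Single values were compared by exact permutation. Alternatives used other size factors and filters, DESeq2 1.42.0, limma-voom (limma 3.58.1), sons alone, thinned counts and each liver left out. The script was tested on simulated data. Named genes are the 15 largest rises and falls and the 10 of lowest p among separated genes of at least 5 CPM, and up to 6 of lowest p and the defining members of each list; not all are printed. The members and lists were chosen with earlier results of these data known. Some genes are not reported here.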

Additional observations from a re-analysis of the deposited data

Results flagged for a closer look

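In 354 group-wise sets of 4 gene levels in sons, 24 had a liver whose gap to its nearest neighbour, as a share of the group's range, passed Dixon's critical value for 4, and chance alone gives about 1 in 20. BPA son 12 was that liver for Pck2 (4.15 CPM, the other 3 exposed sons 3.02 to 3.08), Cpt1a (1534 CPM, 1091 to 1125), Acadl (286 CPM, 234 to 238), Tcf20 (128 CPM, 111 to 113), Zfp281 (79.7 CPM, 51.6 to 54.9) and Dld (161 CPM, 137 to 140). BPA son 15 stood apart for Ripk1 (42.7 CPM, 39.4 to 39.7) and Hba-a2 (231 CPM, 0.359 to 0.580). BPA son 4 did so for Fmo1 (206 CPM, 164 to 169), Cox7a1 (0.454 CPM, the others at 0), Hbb-b1 (0.720 CPM, 176 to 209) and Hbb-bs (83.3 CPM, 0.0359 to 0.446), and BPA son 3 for Ndufs5 (31.6 CPM, 1.70 to 2.42).

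Among control sons, control 10 stood apart for Cd14 (2.46 CPM, the other 3 controls 1.21 to 1.40), Apoc1 (4023 CPM, 3656 to 3713), Hbb-bs (3.04 CPM, 0.402 to 0.468) and Hba-a2 (104 CPM, 0.302 to 0.402). Control 7 did so for Ephx1 (1017 CPM, 762 to 799), Zfp281 (22.7 CPM, 3.85 to 4.47) and Psmb4 (68.8 CPM, 54.6 to 56.7), control 3 for F5 (1230 CPM, 1043 to 1067) and Hsf1 (6.79 CPM, 8.84 to 9.08), and control 2 for Rpl26 (20.6 CPM, 0.0468 to 0.626) and Ly6e (14.0 CPM, 6.75 to 7.33). Control 2 also had the lowest total count, 21.1 M against 23.4 to 23.6 M counts.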

How the results depend on the processing

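With 1 liver left out, genes that rose numbered 621 to 958, genes that fell 699 to 1018, and genes that differed between sons and daughters 0 to 1. The difference gave 36 genes in DESeq2 and 1 in limma-voom, and 0 under the other settings with all livers. Of 139 named genes that passed, none changed sign under any setting, 88 passed in all 8 fits with 1 liver left out and 33 missed the threshold in at least 4. DESeq2 ended 0 of these calls, limma-voom 12 and the fit of sons alone 22, and the cause was not tested. Of 38 named genes that did not pass, 12 changed sign under some setting and 5 (Tmprss6, Lcn2, Serpina3n, Ndufs5 and Glul) passed under some setting. With 1 liver left out, log2 changes spanned −0.0493 to 1.13 for Socs3, −0.0554 to 0.0627 for Insr, −0.147 to 0.0749 for Igf1, −0.274 to 0.213 for Srebf1, −0.0805 to 0.0884 for Cpt1a, −0.0925 to 0.0312 for Hsf1, −4.74 to 0.30 for Rpl26, −0.0246 to 0.124 for Ahr, −1.92 to 5.57 for Hbb-bs and −5.87 to 7.31 for Hba-a2. By limma-voom Fgb measured −0.0269, Cpt1a −0.0617 and Hbb-b1 −1.26, and with thinned counts Hsf1 measured 0.0336. No paired analysis was possible because the labels link no exposed son to a control son. The ID 3 occurs in both groups and marks separate animals. With 4 livers a group and small changes, a gene that did not pass is not shown to be unchanged.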

Other observations

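Several groups not described above held calls in both directions. Of 36 proteasome genes, 4 rose and 5 fell in exposed sons (11.1% and 13.9%). Psmb4, a subunit of the catalytic core, measured 110, 97.5, 105 and 100 CPM in exposed sons and 55.0, 54.6, 68.8 and 56.7 CPM in controls (log2 change 0.81 ± 0.09, adjusted p = 5.67e-05, edgeR's quasi-likelihood test with Benjamini-Hochberg adjustment). Psma4, of the same core, fell by 0.51 ± 0.08 and Psmc1, of the cap that unfolds substrates, by 0.54 ± 0.09 in log2 units (adjusted p = 0.000756 and 0.000944). Of 26 TCA cycle genes 3 rose and 3 fell. Mdh1, the cytosolic malate dehydrogenase gene, rose from 347 ± 14.6 to 474 ± 27.0 CPM (SD, n = 4, edgeR adjusted p = 0.00138), and Dld, a shared subunit of 2-oxoacid dehydrogenases, fell from 194 ± 10.9 to 144 ± 11.5 CPM (0.00109). Atg3, which attaches autophagy proteins to lipid, fell from 117 ± 3.78 to 76.9 ± 3.39 CPM (edgeR adjusted p = 9.19e-05). The exposed and control values of these 6 genes did not overlap, and all 6 passed in all 8 fits with 1 liver left out.

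Imprinted and chromatin genes gave few calls. Of 33 imprinted genes, 1 rose and 3 fell. Kcnq1ot1, a long RNA that silences its neighbours on the paternal chromosome, measured 49.3, 51.0, 45.9 and 50.9 CPM in exposed sons and 70.8, 87.0, 84.5 and 64.4 CPM in controls (−0.64 ± 0.15, adjusted p = 0.0107). Cdkn1c, a cell cycle inhibitor gene of the same domain, of which 30.7% of the exons overlap Gm44732, measured 1.79, 1.40, 0.982 and 1.71 CPM against 2.52, 2.46, 2.81 and 2.46 CPM (−0.79 ± 0.18, adjusted p = 0.00796). Every exposed liver was below every control for both genes, and both passed in all 8 fits with 1 liver left out. Of 47 DNA methylation and chromatin genes, 4 fell and none rose, 8.51% against 8.76% of all genes. Of 48 growth hormone response and sex-biased genes 2 rose and 2 fell, fewer than the background of 15.1%. Selenbp2, a selenium-binding protein gene (59.3% shared sequence words), rose to 103, 86.6, 173 and 170 CPM from 58.8, 56.3, 50.7 and 45.5 CPM (1.33 ± 0.28, adjusted p = 0.00534).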
